A study of Mus musculus with 6 samples.

Results

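The solute carrier (SLC) genes of mouse macrophages were followed in cells given SA@BATMAN5 or phosphate-buffered saline. A gene was a member when its symbol began with Slc and a family number, or with Slco, and its counts summed to at least 60 over the 6 libraries. Slc7a1, Slc7a2, Slc7a11, Slc11a1, Slc11a2 and Slc40a1 were left out by name. These rules gave 227 members of 23034 genes in the table. The table holds 391 matching symbols, of which 158 stayed under the sum, 71 of them with at least 1 count. Members were thus chosen by symbol and by their summed count, which ran between 64 and 216614. Just inside the limit stood Slc23a1 and Slc2a4 with 64 counts each and Slc12a1 with 65, and just outside it Slc13a5 with 55 and Slc13a2 with 52. The sum did not compare the groups, but the counts of 1 group alone could reach it. All 64 counts of Slc2a4 were in Control libraries, which were deeper and so weighed more in the sum.

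Solute carriers are membrane proteins that move small molecules across the plasma membrane or the membranes of organelles, as facilitators, exchangers or transporters driven by an ion gradient. Their families are numbered, and members of a family often share a kind of substrate, such as amino acids, sugars, metals or nucleotide sugars. In macrophages they feed glycolysis and amino acid use, carry haem and metals out of the phagolysosome, and fill mitochondria and lysosomes with their substrates.

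The SA@BATMAN5 group had 3 libraries of M2 bone marrow-derived macrophages given SA@BATMAN5 for 24 hours, and the Control group had 3 libraries of the same kind of cell given PBS. All cells were wild type, had matured in medium with 10 ng/ml M-CSF, and had spent 24 hours in 20 ng/ml IL-4 before they were reseeded and treated. The table's columns are named by letters and numbers, and assigning them to the groups is a reading of those names that no label states. The labels do not say what SA@BATMAN5 consists of, what its dose was, whether IL-4 stayed in the medium, or the age of the mice. They also do not say whether the libraries of a group came from separate animals or cultures, and the p-values reflect no more than the scatter of these libraries, part or all of which may be technical.

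Total counts ran between 29739263 and 37212125 in SA@BATMAN5 libraries and between 38740103 and 47018154 in Control libraries, so every SA@BATMAN5 library was shallower than every Control library. The members took 1.11% to 1.12% of the counts in SA@BATMAN5 libraries and 1.15% to 1.17% in Control libraries, whereas their summed level after TMM scaling was 11439 to 11511 CPM in SA@BATMAN5 libraries and 11203 to 11442 CPM in Control libraries. CPM are counts per 1e6 of a library's total after TMM scaling, and 3 counts are worth between 0.0620 and 0.103 CPM in a library. Of 8 macrophage markers, 6 rose and 2 fell, and their summed level was 22846 to 23025 CPM in SA@BATMAN5 libraries and 16313 to 16501 CPM in Control libraries. Among 8 tested markers of fibroblasts and stroma, 7 rose, and the list summed to 2071 to 2408 CPM in SA@BATMAN5 libraries and 1654 to 1945 CPM in Control libraries, with Lum at 0. The neutrophil list summed to 60.9 to 71.5 CPM in SA@BATMAN5 libraries and 7.77 to 8.58 CPM in Control libraries, with 3 of 4 tested genes higher and Ly6g, Mpo, Ctsg and Retnlg at 0 in all libraries. S100a8 made up most of that sum, with means of 61.7 CPM in SA@BATMAN5 libraries and 5.63 CPM in Control libraries. Lymphocyte markers summed to 2.72 to 6.54 CPM in SA@BATMAN5 libraries and 0.702 to 1.601 CPM in Control libraries, with Cd3e and Cd3d at 0. Klrb1c averaged 3.27 CPM in SA@BATMAN5 libraries, and Ms4a1 had 2.40 CPM in SA@BATMAN5 library 3 alone of that group. Dendritic cell markers summed to 6.63 to 7.58 CPM in SA@BATMAN5 libraries and 4.74 to 5.12 CPM in Control libraries. Of 4 tested, only Ccr7 was called, with means of 3.27 CPM in SA@BATMAN5 libraries and 0.0894 CPM in Control libraries. Zbtb46, Xcr1 and Clec9a had lower means in SA@BATMAN5 libraries and were not called. Mast cell markers summed to at most 1.03 CPM and erythroid markers to at most 0.167 CPM. The part of these markers in the results on transporters was not tested.

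Of the 227 members, 226 passed the filter on low counts, and 145 of those differed between the groups at an adjusted p under 0.05 by edgeR's quasi-likelihood test. They were 72 genes that rose in SA@BATMAN5 cells and 73 that fell. Over all 13474 genes tested, 58.2% were called, 29.5% higher and 28.7% lower, so the members' share of 64.2% lay near that of all genes. Upper-quartile scaling, which moved the median of all genes by -0.08, called 3239 of them higher and 4791 lower, against 3980 and 3866 here, and 65 members higher and 89 lower. At a change of at least 2-fold, 21 members rose and 22 fell, or 19.03% of the 226, against 16.5% of all genes (9.17% higher and 7.35% lower). The median log2 fold change was 0.01 over the members and -0.00 over all genes tested. In 79 members every SA@BATMAN5 library lay above every Control library and in 81 every one lay below, and 64.1% of all genes likewise had groups that did not overlap. Slc1a3, a glutamate transporter, was the member not tested, with 0.2502, 0.723 and 0.773 CPM in SA@BATMAN5 libraries, against 0.256, 0.251 and 0.186 CPM in Control libraries. Among tested members, Slc1a2 passed the filter through SA@BATMAN5 libraries alone, and Slc2a4, Slc51a, Slc5a11 and Slco2b1 through Control libraries alone. All of these but Slc5a11 were called, and they are among the members counted at 2-fold or more and at 4-fold or more. The cells were measured in bulk, so fewer cells of a type and less RNA per cell cannot be told apart.

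**Figure D1:**
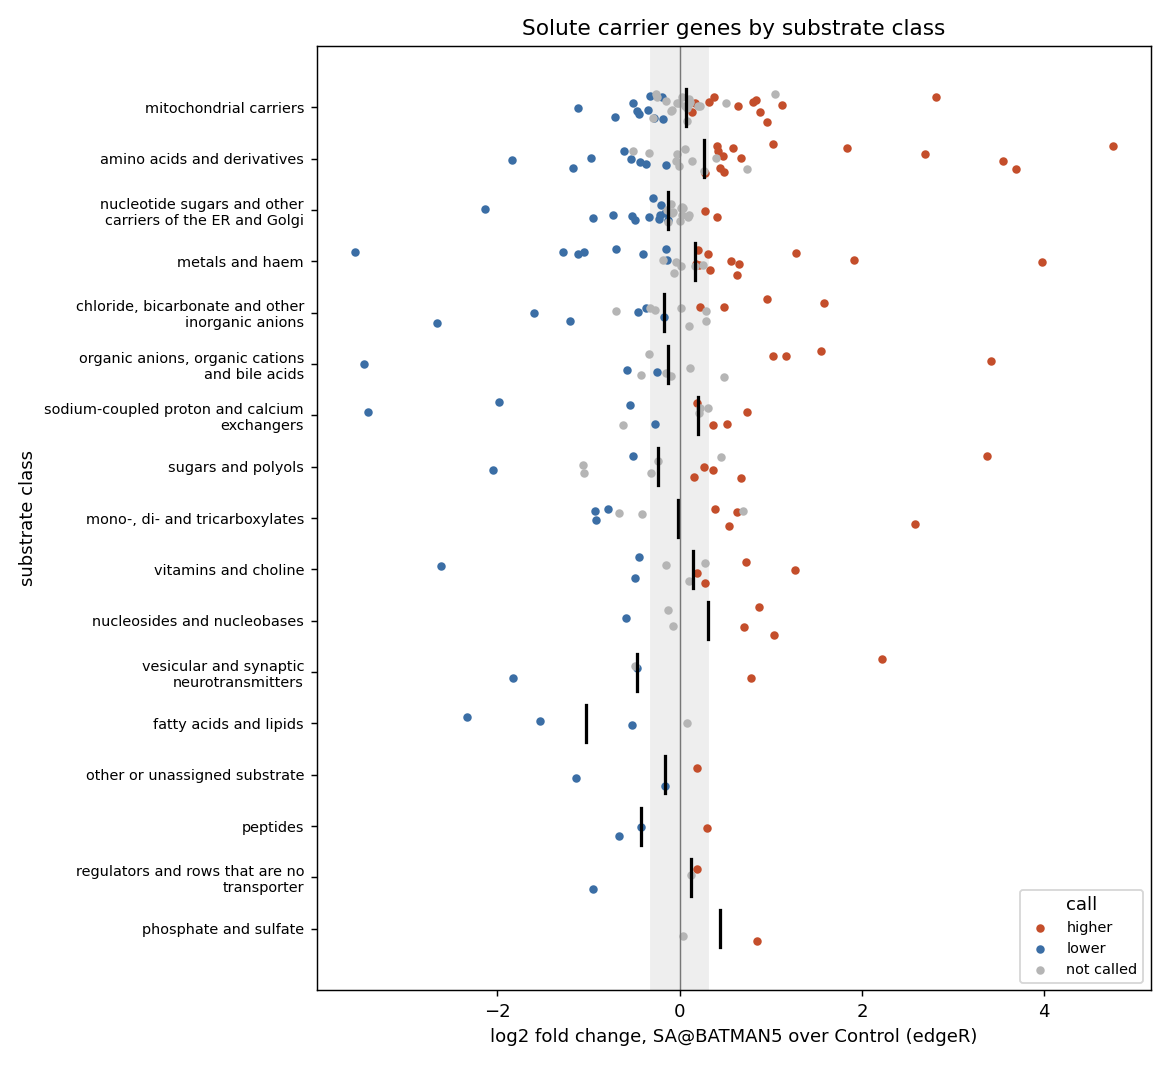
Each point is a tested solute carrier gene, placed by its log2 fold change (SA@BATMAN5 over Control, edgeR, n = 3 each) in the row of its substrate class, with red for called higher, blue for called lower and grey for not called. Black bars mark class medians and the grey band the interquartile range of all genes tested. Slc2a4 and Slco2b1, with 0 and 2 counts in SA@BATMAN5 libraries, and Slc7a6os, alone in its class, are not drawn. Most classes held members that rose and members that fell.

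Carriers of amino acids and their derivatives formed a class of 33 members, of which 14 rose, 8 fell, 10 were not called and Slc1a3 was not tested, with a median log2 fold change of 0.27. Their summed level was 2572 ± 29.7 CPM in SA@BATMAN5 libraries and 2431 ± 21.7 CPM in Control libraries (SD, n = 3 each). The largest increase among all members, by log2 fold change, was that of Slc6a12, the betaine and GABA transporter BGT1. Slc6a12 had 21.3, 26.2 and 26.4 CPM in SA@BATMAN5 libraries, against 0.897, 0.551 and 1.24 CPM in Control libraries. All SA@BATMAN5 libraries thus stood far above all Control libraries (log2 fold change 4.75 ± 0.20 SE, adjusted p = 2.14e-11 by edgeR). Slc6a13, the neighbouring gene for the GABA and taurine transporter GAT2, had 3.53, 5.27 and 3.92 CPM in SA@BATMAN5 libraries, against 0.3202, 0.326 and 0.3304 CPM in Control libraries, again with no overlap (log2 fold change 3.69 ± 0.27 SE, adjusted p = 2.15e-08 by edgeR).

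The windows of 250 bases before the annotated starts of Slc6a12 and Slc6a13 are shown, a choice made after the values were seen, because these neighbours rose together, and the capitals mark the match to the NF-kappaB consensus found in each. They are RefSeq sequences on GRCm38.p6 and the plus strand, at chr6:121342324-121342573 for Slc6a12 and chr6:121303389-121303638 for Slc6a13. The matches began 133 bases before the start of Slc6a12 and 77 bases before that of Slc6a13.
Slc6a12: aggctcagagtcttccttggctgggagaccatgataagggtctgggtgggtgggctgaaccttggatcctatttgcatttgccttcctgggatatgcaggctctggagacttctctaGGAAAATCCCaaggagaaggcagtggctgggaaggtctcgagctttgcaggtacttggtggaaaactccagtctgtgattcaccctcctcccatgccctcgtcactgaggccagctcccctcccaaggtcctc
Slc6a13: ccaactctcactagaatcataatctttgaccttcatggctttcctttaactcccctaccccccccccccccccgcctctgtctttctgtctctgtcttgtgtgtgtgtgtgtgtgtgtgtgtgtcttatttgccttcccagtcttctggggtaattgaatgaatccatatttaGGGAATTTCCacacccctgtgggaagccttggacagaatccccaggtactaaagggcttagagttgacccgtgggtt
RefSeq gives 5 such windows for Slc6a12 and 3 for Slc6a13. For each gene, the 1 window that holds the match is the one shown. On either strand, 4.46% of the 27025 genes with a window, expressed or not, held the consensus in at least 1 window. It was present in 13 of the 175 members with a window (7.43%). Of those that rose at least 2-fold, 2 of 18 held it, which are Slc6a12 and Slc6a13 themselves. Of those that fell at least 2-fold, 1 of 14 held it. Other motifs were searched as well and are given further below. A match in letters is a description and not a site of binding.

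Slc6a9, the glycine transporter GLYT1, had 18.3, 17.5 and 19 CPM in SA@BATMAN5 libraries, against 2.65, 2.41 and 3.39 CPM in Control libraries (log2 fold change 2.69 ± 0.12 SE, adjusted p = 1.67e-10 by edgeR). Its lowest SA@BATMAN5 library was well above its highest Control library. Slc16a10, which carries aromatic amino acids, had 183, 190.5 and 182 CPM in SA@BATMAN5 libraries, against 52.3, 51.1 and 51.6 CPM in Control libraries, with narrow spread in both groups (log2 fold change 1.84 ± 0.036 SE, adjusted p = 1.41e-14 by edgeR). Slc7a8, the light chain LAT2 of an exchanger of neutral amino acids, had 222, 211 and 217 CPM in SA@BATMAN5 libraries, against 100.1, 117 and 102 CPM in Control libraries (log2 fold change 1.03 ± 0.052 SE, adjusted p = 4.9e-10 by edgeR). Its partner Slc3a2, the CD98 heavy chain that brings several light chains to the cell surface, had 374, 393 and 397 CPM in SA@BATMAN5 libraries, against 247, 268 and 261 CPM in Control libraries (log2 fold change 0.59 ± 0.037 SE, adjusted p = 6.76e-09 by edgeR). Both subunits were higher in every SA@BATMAN5 library. The other CD98 light chains among the members changed less, with log2 fold changes of 0.48 for Slc7a6, 0.44 for Slc7a7 and 0.27 for Slc7a5, the last of which encodes LAT1. All of them passed edgeR's threshold, Slc7a5 at an adjusted p of 0.00352, a call that was lost on log2(FPKM + 1) (adjusted p = 0.0547 by limma). Slc1a2, a glutamate transporter, was called at counts near the floor, with 1.75, 0.517 and 1.13 CPM in SA@BATMAN5 libraries, against 0.235, 0 and 0.0413 CPM in Control libraries.

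The taurine transporter Slc6a6 was the most abundant amino acid carrier of Control cells after Slc3a2 by FPKM (fragments per length of transcript and size of library). Slc6a6 fell to 498, 504 and 515 CPM in SA@BATMAN5 libraries, against 759, 719.5 and 725 CPM in Control libraries (log2 fold change -0.54 ± 0.031 SE, adjusted p = 2.33e-09 by edgeR). The creatine transporter Slc6a8 fell as well, to 152, 147 and 151 CPM in SA@BATMAN5 libraries, against 199.9, 207 and 202 CPM in Control libraries. Its log2 fold change was -0.44, and the groups did not overlap. Slc38a9, a lysosomal carrier known as an arginine sensor upstream of mTORC1, had 31.7, 32.99 and 30.7 CPM in SA@BATMAN5 libraries, against 65.3, 61.8 and 60.7 CPM in Control libraries (log2 fold change -0.98 ± 0.050 SE, adjusted p = 5.82e-10 by edgeR). Slc38a1 and Slc38a2, sodium-coupled carriers of glutamine and other neutral amino acids, fell by 0.37 and 0.15 on the log2 scale. The adjusted p of Slc38a2 was 0.0219 by edgeR, and the call was lost without SA@BATMAN5 library 1 or 2 or Control library 1 or 3. The glutamine carrier Slc1a5 averaged 72.6 ± 1.69 CPM in SA@BATMAN5 libraries and 74.4 ± 0.819 CPM in Control libraries (SD, n = 3 each), which did not pass the test. Slc43a2, a carrier of large neutral amino acids, averaged 329 ± 5.33 CPM in SA@BATMAN5 libraries and 329 ± 14.2 CPM in Control libraries, and Slc36a4, a high-affinity carrier of proline and tryptophan, 99.01 ± 1.76 CPM in SA@BATMAN5 libraries and 101 ± 4.66 CPM in Control libraries, with overlapping groups in both. On log2(FPKM + 1) Slc43a2 was called lower, at a log2 difference of -0.14.

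**Figure D2:**
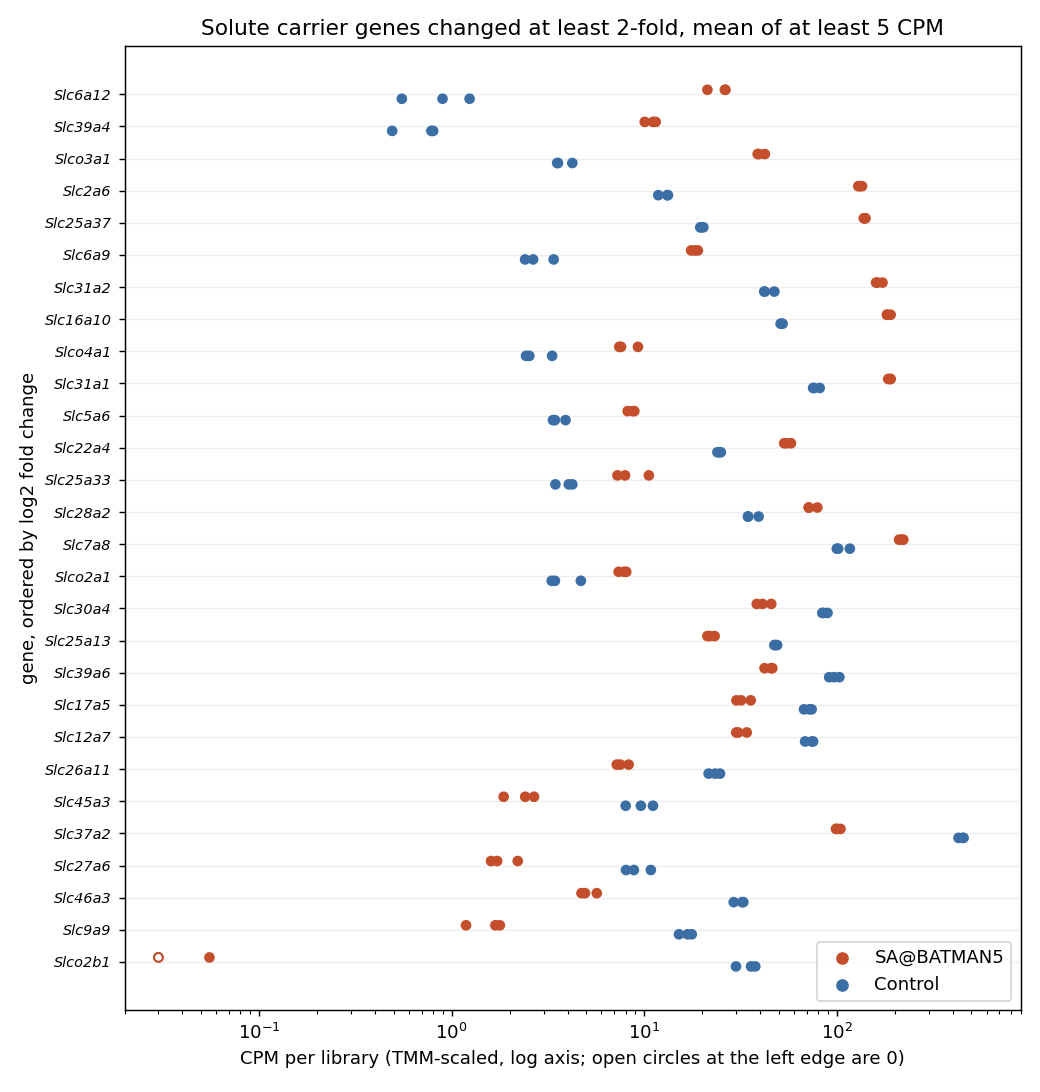
Points give CPM in each library on a log axis for the members called by edgeR at a change of at least 2-fold and a mean of at least 5 CPM, 16 higher and 12 lower, with SA@BATMAN5 libraries above Control libraries in each row (n = 3 each). The groups are apart in every gene drawn; open circles at the left edge are libraries at 0, which occur for Slco2b1.

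Among 13 carriers of sugars and polyols, 5 rose, 3 fell and 5 were not called, and the median log2 fold change was -0.23, also with Slc2a4 set at its bound. The summed level of the class nevertheless was 443 ± 6.09 CPM in SA@BATMAN5 libraries and 243 ± 3.99 CPM in Control libraries, a difference carried by a pair of genes. Slc2a6, the lysosomal glucose transporter family member GLUT6, had 129, 132 and 135 CPM in SA@BATMAN5 libraries, against 13.3, 11.8 and 13.2 CPM in Control libraries. Every SA@BATMAN5 library was far above the Control libraries (log2 fold change 3.37 ± 0.050 SE, adjusted p = 8.64e-16 by edgeR). Slc2a1, the widely expressed glucose transporter GLUT1, had 224, 218 and 217 CPM in SA@BATMAN5 libraries, against 135, 139 and 139 CPM in Control libraries (log2 fold change 0.67 ± 0.033 SE, adjusted p = 3.5e-10 by edgeR). In SA@BATMAN5 cells Slc2a1 and Slc2a6 reached similar levels per length, at 54.6 and 48.9 FPKM, whereas in Control cells they stood at 36.2 and 4.84 FPKM. Slc2a3, the high-affinity transporter GLUT3, had 1.75, 2.48 and 2.43 CPM in SA@BATMAN5 libraries, against 2.797, 2.83 and 2.62 CPM in Control libraries, which did not pass the test (adjusted p = 0.199, edgeR). Slc45a3 fell to 1.86, 2.41 and 2.68 CPM in SA@BATMAN5 libraries, against 9.61, 11.1 and 8.01 CPM in Control libraries (log2 fold change -2.04 ± 0.17 SE, adjusted p = 9.53e-08 by edgeR). Slc2a4, the insulin-responsive GLUT4, had 0 counts in all SA@BATMAN5 libraries and 64 counts over the Control libraries, and was at least 15.98-fold lower in SA@BATMAN5 cells against a floor of 3 counts over the group.

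Of 10 carriers of mono-, di- and tricarboxylates, 4 rose, 3 fell and 3 were not called (median log2 fold change -0.01). The lactate carriers differed in direction. Slc16a3, the exporter MCT4, had 116, 117 and 122 CPM in SA@BATMAN5 libraries, against 80.2, 80.5 and 83.9 CPM in Control libraries (log2 fold change 0.54 ± 0.038 SE, adjusted p = 1.95e-08 by edgeR), and its FPKM gave a larger log2 difference of 0.86. Slc16a1, MCT1, had 19.6, 19 and 20.7 CPM in SA@BATMAN5 libraries, against 34.3, 32.9 and 34.9 CPM in Control libraries (log2 fold change -0.78 ± 0.059 SE, adjusted p = 4.58e-08 by edgeR). MCT4 was thus higher and MCT1 lower in every SA@BATMAN5 library than in any Control library. Slc16a6, a carrier of ketone bodies, had 37.4, 34.96 and 35.9 CPM in SA@BATMAN5 libraries, against 71.1, 66.8 and 67.1 CPM in Control libraries (log2 fold change -0.92 ± 0.048 SE, adjusted p = 6.75e-10 by edgeR). Slc16a9 rose at low level, with 4.198, 5.17 and 5.03 CPM in SA@BATMAN5 libraries, against 0.918, 0.702 and 0.764 CPM in Control libraries (log2 fold change 2.58 ± 0.21 SE, adjusted p = 7.77e-08 by edgeR). Slc16a7, MCT2, was called lower although its groups overlapped, with 8.17, 8.02 and 14.6 CPM in SA@BATMAN5 libraries, against 24.6, 21.98 and 12.6 CPM in Control libraries. Its log2 difference was -0.94 on CPM means and -0.23 on FPKM, and the call was lost on log2(FPKM + 1).

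Mitochondrial carriers of the Slc25 family were the largest class, with 40 members, of which 11 rose, 10 fell and 19 were not called (median 0.07). Their summed level was 1996 ± 3.79 CPM in SA@BATMAN5 libraries and 1989 ± 10.05 CPM in Control libraries (SD, n = 3 each). Slc25a37, mitoferrin-1, which brings iron into mitochondria, had 138, 141 and 139.8 CPM in SA@BATMAN5 libraries, against 20.3, 19.5 and 19.8 CPM in Control libraries. It had the smallest adjusted p of any member (log2 fold change 2.81 ± 0.040 SE, adjusted p = 5.01e-16 by edgeR). Its paralog Slc25a28, mitoferrin-2, had 20.2, 19.3 and 20.9 CPM in SA@BATMAN5 libraries, against 11.7, 11.1 and 11.7 CPM in Control libraries, an increase of 0.81 on the log2 scale. Slc25a38, a glycine carrier needed for haem synthesis, had 20.3, 18.4 and 19.7 CPM in SA@BATMAN5 libraries, against 11.3, 10.5 and 9.79 CPM in Control libraries (log2 fold change 0.88 ± 0.084 SE, adjusted p = 5.24e-07 by edgeR). The 3 genes were higher in every SA@BATMAN5 library. Slc25a39, a carrier of glutathione, fell by 0.19 on the log2 scale.

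The dicarboxylate carrier Slc25a10 had 67.4, 65.02 and 63.6 CPM in SA@BATMAN5 libraries, against 32.05, 35.4 and 33.7 CPM in Control libraries (log2 fold change 0.95 ± 0.050 SE, adjusted p = 8.07e-10 by edgeR). Slc25a33, a carrier of pyrimidine nucleotides, had 7.95, 10.6 and 7.26 CPM in SA@BATMAN5 libraries, against 4.06, 3.46 and 4.23 CPM in Control libraries (log2 fold change 1.13 ± 0.15 SE, adjusted p = 2.23e-05 by edgeR). Smaller increases were found for the glutamate carrier Slc25a22 (log2 fold change 0.84), the oxoglutarate carrier Slc25a11 (0.38) and the citrate carrier Slc25a1 (0.32). The paired aspartate and glutamate carriers of the malate-aspartate shuttle moved apart. Slc25a13, citrin, fell to 21.3, 23.2 and 21.9 CPM in SA@BATMAN5 libraries, against 49.04, 47.4 and 47.7 CPM in Control libraries (log2 fold change -1.12 ± 0.054 SE, adjusted p = 2.8e-10 by edgeR), and Slc25a12, aralar, had 53.99, 55.1 and 53.7 CPM in SA@BATMAN5 libraries, against 33.1, 36.1 and 35.6 CPM in Control libraries (log2 fold change 0.64 ± 0.049 SE, adjusted p = 6.22e-08 by edgeR). The most abundant mitochondrial carriers were lower in SA@BATMAN5 cells. Slc25a5, which exchanges ADP for ATP, averaged 207 ± 1.04 FPKM in SA@BATMAN5 libraries and 277 ± 2.02 FPKM in Control libraries (SD, n = 3 each), with a log2 fold change -0.35 ± 0.029 SE, adjusted p = 1.36e-07 by edgeR on the counts. The phosphate carrier Slc25a3 averaged 136 ± 2.12 FPKM in SA@BATMAN5 libraries and 195 ± 0.605 FPKM in Control libraries (log2 fold change -0.45 ± 0.029 SE, adjusted p = 8.96e-09 by edgeR). Slc25a4, a close paralog of Slc25a5, had 138, 146 and 142 CPM in SA@BATMAN5 libraries, against 147, 145 and 143 CPM in Control libraries, which did not pass the test, and reads shared by the paralogs may have been divided in ways that depend on the authors' counting.

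Of 25 carriers of metals and haem, 11 rose, 8 fell and 6 were not called (median 0.17), and the summed level was 2111 ± 31.02 CPM in SA@BATMAN5 libraries and 1683 ± 15.6 CPM in Control libraries. Both copper transporters of the Slc31 family rose. Slc31a2, CTR2, had 162, 160.01 and 173 CPM in SA@BATMAN5 libraries, against 42.4, 47.4 and 42.01 CPM in Control libraries (log2 fold change 1.91 ± 0.050 SE, adjusted p = 3.32e-13 by edgeR), and Slc31a1, the uptake carrier CTR1, had 185, 189 and 191 CPM in SA@BATMAN5 libraries, against 76.1, 75.4 and 81.6 CPM in Control libraries (log2 fold change 1.28 ± 0.039 SE, adjusted p = 1.71e-12 by edgeR). No library of one group reached the range of the other. Slc48a1, HRG1, which takes haem out of the phagolysosome and was the most abundant member of the class, had 695, 727 and 711 CPM in SA@BATMAN5 libraries, against 474, 490.2 and 476 CPM in Control libraries (log2 fold change 0.57 ± 0.030 SE, adjusted p = 9.17e-10 by edgeR).

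The zinc carriers were divided. Of 13 Slc39 (ZIP) genes, which bring zinc into the cytosol, 5 rose and 5 fell, and of 6 Slc30 (ZnT) genes, which take it out of the cytosol, 3 rose and 2 fell. Slc39a4, ZIP4, had 10.1, 11.5 and 11.1 CPM in SA@BATMAN5 libraries, against 0.491, 0.802 and 0.785 CPM in Control libraries (log2 fold change 3.97 ± 0.19 SE, adjusted p = 1.19e-10 by edgeR). Slc39a14, ZIP14, which carries zinc, iron and manganese, had 40.8, 45.1 and 42.3 CPM in SA@BATMAN5 libraries, against 26.5, 27.9 and 27.2 CPM in Control libraries (log2 fold change 0.65 ± 0.055 SE, adjusted p = 1.66e-07 by edgeR). Both were higher in all SA@BATMAN5 libraries. Slc39a6, ZIP6, had 46.3, 45.6 and 42.2 CPM in SA@BATMAN5 libraries, against 103, 91.3 and 96.7 CPM in Control libraries (log2 fold change -1.12 ± 0.053 SE, adjusted p = 2.25e-10 by edgeR). Slc39a8, ZIP8, had 2.11, 1.38 and 1.49 CPM in SA@BATMAN5 libraries, against 3.99, 3.76 and 4.42 CPM in Control libraries (log2 fold change -1.28 ± 0.20 SE, adjusted p = 7.77e-05 by edgeR). Slc30a4, ZnT4 of endosomes and lysosomes, had 38.4, 45.7 and 41.1 CPM in SA@BATMAN5 libraries, against 89.5, 84.1 and 85.4 CPM in Control libraries (log2 fold change -1.05 ± 0.057 SE, adjusted p = 1.12e-09 by edgeR). These 3 were lower in all SA@BATMAN5 libraries. Slc30a1, the plasma membrane exporter ZnT1, had a log2 fold change of 0.18 at an adjusted p of 0.00458 by edgeR, a call that was lost on library totals, on upper-quartile scaling and on log2(FPKM + 1).

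Nucleoside carriers numbered 6, with 3 higher, 1 lower and 2 not called. Slc28a2, the concentrative carrier CNT2, had 79.3, 71.6 and 71.6 CPM in SA@BATMAN5 libraries, against 39.3, 34.7 and 34.6 CPM in Control libraries (log2 fold change 1.04 ± 0.060 SE, adjusted p = 2.23e-09 by edgeR), and its neighbour and near copy Slc28a2b had 4.36, 4.03 and 4.004 CPM in SA@BATMAN5 libraries, against 2.69, 2.105 and 1.96 CPM in Control libraries (log2 fold change 0.87 ± 0.18 SE, adjusted p = 0.000794 by edgeR). The pair lies side by side on chromosome 2, and how shared reads were divided between them is not given in the sources used here. Slc29a1, the equilibrative carrier ENT1, averaged 97.2 ± 4.19 CPM in SA@BATMAN5 libraries and 102 ± 3.199 CPM in Control libraries (SD, n = 3 each) and did not pass the test. Slc29a3, the lysosomal carrier ENT3, had 126, 124 and 122 CPM in SA@BATMAN5 libraries, against 198, 180.5 and 183 CPM in Control libraries (log2 fold change -0.59 ± 0.040 SE, adjusted p = 1.4e-08 by edgeR). Of the phosphate carriers, Slc20a1 had 104, 100.5 and 101 CPM in SA@BATMAN5 libraries, against 54.8, 55.03 and 59.1 CPM in Control libraries (log2 fold change 0.85 ± 0.042 SE, adjusted p = 3.56e-10 by edgeR), and Slc20a2 did not pass the test.

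The peptide and histidine carriers of the lysosome moved in opposite directions. Of 3 peptide carriers in the class, 1 rose and 2 fell. Slc15a3 (PHT2), the solute carrier with the highest FPKM in both groups, had 790.2, 740.2 and 771 CPM in SA@BATMAN5 libraries, against 1031, 1042 and 1011 CPM in Control libraries (log2 fold change -0.42 ± 0.031 SE, adjusted p = 3.17e-08 by edgeR). Slc15a4 (PHT1), which is also known as a partner of endosomal Toll-like receptor signalling, had 34.1, 30.4 and 34.7 CPM in SA@BATMAN5 libraries, against 27.03, 27.8 and 26.02 CPM in Control libraries (log2 fold change 0.30 ± 0.063 SE, adjusted p = 0.000997 by edgeR). Neither gene had overlapping groups. Slc17a5, sialin, which exports sialic acid from lysosomes, had 31.9, 35.7 and 30.1 CPM in SA@BATMAN5 libraries, against 74.1, 72.1 and 67.6 CPM in Control libraries (log2 fold change -1.13 ± 0.061 SE, adjusted p = 1.13e-09 by edgeR). Slc49a4, whose substrate is not assigned here, rose by 0.19 on the log2 scale. The call of Slc49a4 was lost under 9 of 15 alternatives, among them each left-out library other than Control 2.

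Carriers of nucleotide sugars and other substrates of the endoplasmic reticulum and Golgi numbered 26. Of these, 2 rose (Slc35c1, a GDP-fucose carrier, and Slc35f5), 12 fell and 12 were not called, with a median log2 fold change of -0.13. Over all genes tested 58.2% were called, 29.5% higher and 28.7% lower, against 53.8% called in this class. The summed level was 926 ± 9.36 CPM in SA@BATMAN5 libraries and 1425 ± 26.8 CPM in Control libraries, and a single gene made up most of the gap. Slc37a2, a sugar-phosphate exchanger of the endoplasmic reticulum that is abundant in macrophages, fell to 105, 99.1 and 101 CPM in SA@BATMAN5 libraries, against 456, 451 and 429 CPM in Control libraries. The spread within a group was small beside this gap (log2 fold change -2.13 ± 0.036 SE, adjusted p = 3.2e-15 by edgeR). Slc35f6 had 114, 109 and 107 CPM in SA@BATMAN5 libraries, against 211, 214 and 214 CPM in Control libraries (log2 fold change -0.95 ± 0.035 SE, adjusted p = 1.61e-11 by edgeR). The other 10 genes that fell had log2 fold changes between -0.73 (Slc35e4) and -0.13 (Slc35b4), and included the carriers of UDP-galactose (Slc35a2), of activated sulfate (Slc35b2), of ATP into the endoplasmic reticulum (Slc35b1) and of acetyl-CoA (Slc33a1). Slc35b4 kept the call under 6 of 15 alternatives, and lost it with 5 of the 6 left-out libraries and by DESeq2's Wald test, with the replicate block, after thinning and with no filter. Slc35e2 kept it under 8, and lost it with 5 left-out libraries, after thinning and on log2(FPKM + 1). Slc35g1 kept it under 11, and lost it with 4 left-out libraries. Slc35a1, which carries CMP-sialic acid, averaged 16.1 ± 1.16 CPM in SA@BATMAN5 libraries and 15.8 ± 1.17 CPM in Control libraries and was not called.

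The windows before Slc37a2 and Slc9a9, a sodium-proton exchanger described next, are shown because both genes fell at least 4-fold and both windows hold the letters TGANTCA, in capitals. These letters are a loose form of an AP-1 motif, with any base in the centre. The centre base is G in Slc37a2 and A in Slc9a9. Slc37a2 lies on the minus strand, with its window at chr9:37255739-37255988, and Slc9a9 on the plus strand, with its window at chr9:94669642-94669891 (RefSeq, GRCm38.p6). The matches began 107 bases before the start of Slc37a2 and 96 bases before that of Slc9a9.
Slc37a2: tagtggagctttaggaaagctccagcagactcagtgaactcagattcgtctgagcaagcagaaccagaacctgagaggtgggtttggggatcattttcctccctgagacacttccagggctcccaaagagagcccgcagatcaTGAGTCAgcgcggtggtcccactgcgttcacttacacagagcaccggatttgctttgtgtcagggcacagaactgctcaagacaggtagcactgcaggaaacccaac
Slc9a9: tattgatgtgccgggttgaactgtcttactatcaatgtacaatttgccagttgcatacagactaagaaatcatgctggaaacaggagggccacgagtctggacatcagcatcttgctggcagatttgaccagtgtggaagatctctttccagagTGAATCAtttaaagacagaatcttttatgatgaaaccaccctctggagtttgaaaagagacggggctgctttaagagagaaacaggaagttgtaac
The letters, read on both strands, were found in at least 1 window of 7.82% of all genes, in 14 of 175 members (8.0%), in 3 of 14 members with a window that fell at least 2-fold and in 2 of 18 that rose at least 2-fold. These letters, too, are no more than a description of the windows. Other motifs were searched on both strands in the same way, and a gene counts when any of its windows holds the letters. In these shares, here and above, all genes are the 27025 genes with a window, expressed or not, rather than the genes tested. The number of windows per gene was not matched between members and all genes. The interferon element, GAAA and GAAA separated by any 2 bases, was found in 3 of 175 members and 3.46% of all genes. The STAT6 palindrome, TTC and GAA separated by any 4 bases, was found in 9 of 175 members and 6.76% of all genes. The PU.1 core GAGGAA was found in 44 of 175 members and 25.9% of all genes, and the antioxidant element TGACNNNGC in 33 of 175 members and 11.5% of all genes. The E-box CACGTG was found in 29 of 175 members and 6.86% of all genes. The hypoxia core ACGTG, which every E-box contains, was found in 48 of 175 members and 18.5% of all genes.

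Among 12 exchangers of sodium with protons or calcium, 4 rose, 4 fell and 4 were not called (median 0.20). Slc9a9, the endosomal sodium-proton exchanger NHE9, had 1.78, 1.69 and 1.19 CPM in SA@BATMAN5 libraries, against 17.7, 16.8 and 15.2 CPM in Control libraries. Its SA@BATMAN5 libraries were all far below its Control libraries (log2 fold change -3.42 ± 0.15 SE, adjusted p = 5.89e-11 by edgeR). Slc9a8, the Golgi NHE8, fell by 0.27 on the log2 scale. Slc8a1, the sodium-calcium exchanger NCX1, had 104, 109 and 107 CPM in SA@BATMAN5 libraries, against 76.4, 72.7 and 74.1 CPM in Control libraries (log2 fold change 0.52 ± 0.038 SE, adjusted p = 3.16e-08 by edgeR). Slc8b1, its mitochondrial counterpart NCLX, rose by 0.37 on the log2 scale.

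Carriers of chloride, bicarbonate and other inorganic anions numbered 17, of which 4 rose, 6 fell and 7 were not called (median -0.17). Slc4a7, NBCn1, a sodium-bicarbonate cotransporter that brings bicarbonate into the cell, had 79.9, 85.3 and 81.3 CPM in SA@BATMAN5 libraries, against 43.7, 39.04 and 43.8 CPM in Control libraries (log2 fold change 0.96 ± 0.051 SE, adjusted p = 9.49e-10 by edgeR). Among potassium-chloride cotransporters, Slc12a4 (KCC1) rose by 0.22 on the log2 scale, and Slc12a7 (KCC4) had 30.1, 30.8 and 34.1 CPM in SA@BATMAN5 libraries, against 74.3, 75.4 and 68.5 CPM in Control libraries (log2 fold change -1.20 ± 0.057 SE, adjusted p = 2.77e-10 by edgeR). KCC4 was lower in every SA@BATMAN5 library than in any Control library. Slc26a11, an anion exchanger found in lysosomes, had 7.20, 8.30 and 7.51 CPM in SA@BATMAN5 libraries, against 23.4, 24.8 and 21.6 CPM in Control libraries (log2 fold change -1.60 ± 0.087 SE, adjusted p = 1.13e-09 by edgeR).

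Of 14 carriers of organic anions, organic cations and bile acids, 4 rose, 4 fell and 6 were not called, and the median was -0.12 with Slco2b1 at its count ratio. All 4 members of the Slco family changed at least 2-fold. Slco2b1, an organic anion transporting polypeptide that carries steroid sulfates, had 0, 0 and 2 counts in SA@BATMAN5 libraries and 4638 counts over the Control libraries, where it stood at 35.9, 37.7 and 29.97 CPM. The ratio of SA@BATMAN5 to Control CPM sums was 0.000576 (exact 95% interval 6.97e-05 to 0.00208, counting error only). Slco3a1, whose human counterpart carries prostaglandins, had 39.4, 38.8 and 42.3 CPM in SA@BATMAN5 libraries, against 3.57, 4.24 and 3.53 CPM in Control libraries (log2 fold change 3.42 ± 0.085 SE, adjusted p = 1.44e-13 by edgeR). Slco4a1, whose human counterpart carries thyroid hormone, had 7.42, 7.58 and 9.28 CPM in SA@BATMAN5 libraries, against 2.43, 2.53 and 3.32 CPM in Control libraries (log2 fold change 1.55 ± 0.16 SE, adjusted p = 1.1e-06 by edgeR). Slco2a1, the prostaglandin transporter, had 7.37, 7.89 and 8.06 CPM in SA@BATMAN5 libraries, against 3.44, 3.31 and 4.69 CPM in Control libraries (log2 fold change 1.02 ± 0.15 SE, adjusted p = 3.68e-05 by edgeR). These 3 were higher in all SA@BATMAN5 libraries. Slc22a4, the ergothioneine carrier, had 54.8, 57.8 and 53.3 CPM in SA@BATMAN5 libraries, against 24.0, 24.6 and 25.01 CPM in Control libraries (log2 fold change 1.17 ± 0.052 SE, adjusted p = 1.06e-10 by edgeR). Its neighbours on chromosome 11, the carnitine carriers Slc22a5 and Slc22a21, did not pass the test, and reads of these close paralogs may be shared.

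**Figure D3:**
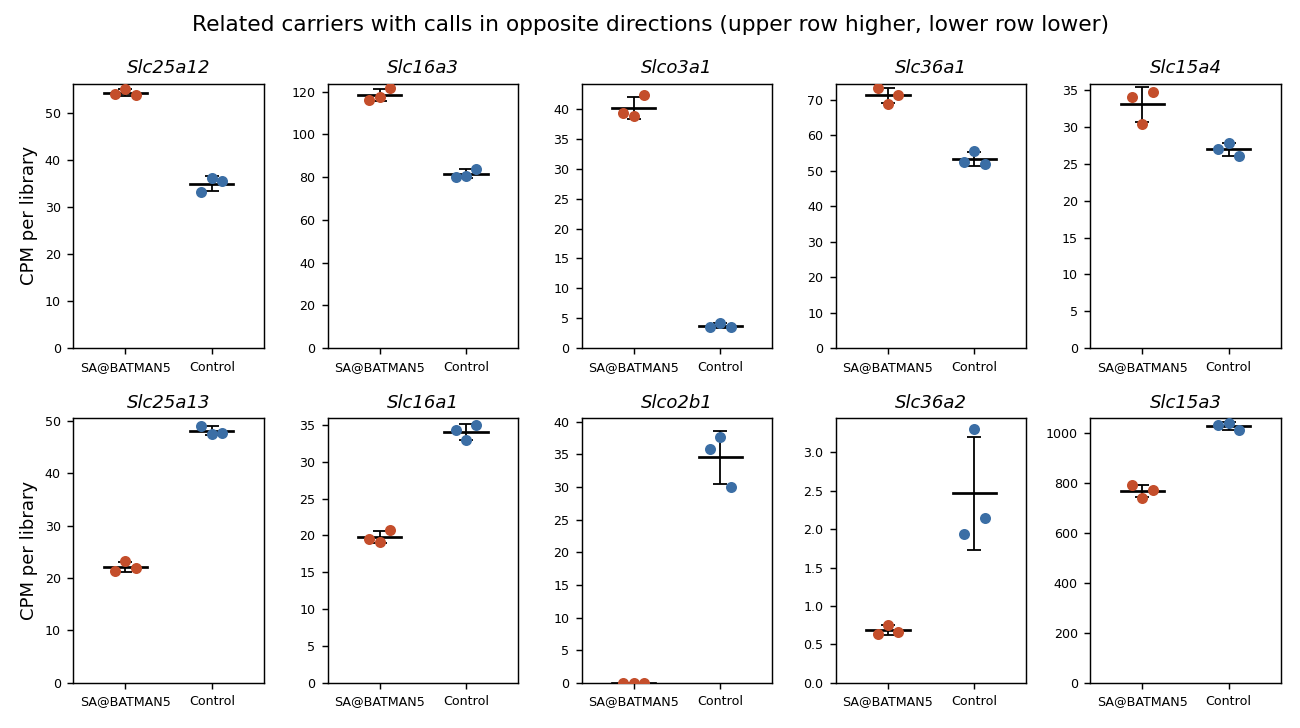
Points give CPM in each library (linear axes that start at 0) for 5 pairs of related carriers, with the gene called higher above the gene called lower, SA@BATMAN5 libraries left of Control libraries (n = 3 each), and bars for the mean and SD. The pairs were chosen after their values were seen; Slco2b1 has 0, 0 and 2 counts in SA@BATMAN5 libraries, against 29.97 to 37.7 CPM in Control libraries.

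Vitamin and choline carriers numbered 10, with 4 higher, 3 lower and 3 not called. Slc46a3, a lysosomal carrier, fell to 5.67, 4.93 and 4.72 CPM in SA@BATMAN5 libraries, against 32.3, 29.2 and 32.7 CPM in Control libraries (log2 fold change -2.62 ± 0.089 SE, adjusted p = 5.14e-12 by edgeR). Slc5a6, the sodium-coupled carrier of biotin and pantothenate, had 8.701, 8.89 and 8.202 CPM in SA@BATMAN5 libraries, against 3.44, 3.36 and 3.903 CPM in Control libraries (log2 fold change 1.27 ± 0.12 SE, adjusted p = 6.24e-07 by edgeR). The choline carriers Slc44a1 and Slc44a2 rose by 0.73 and 0.28 on the log2 scale. Slc19a1, the reduced folate carrier, had 5.34, 7.34 and 6.96 CPM in SA@BATMAN5 libraries, against 9.42, 8.42 and 8.84 CPM in Control libraries (adjusted p = 0.00829, edgeR). Of 4 fatty acid transport proteins, none rose and 3 fell. Slc27a1, the most abundant, had 84.3, 75.9 and 84.6 CPM in SA@BATMAN5 libraries, against 118, 122 and 112 CPM in Control libraries (log2 fold change -0.52 ± 0.048 SE, adjusted p = 3.94e-07 by edgeR), Slc27a6 had 1.72, 2.204 and 1.602 CPM in SA@BATMAN5 libraries, against 10.8, 8.04 and 8.84 CPM in Control libraries (log2 fold change -2.33 ± 0.17 SE, adjusted p = 2.06e-08 by edgeR), and Slc27a4 averaged 38.3 ± 0.653 CPM in SA@BATMAN5 libraries and 36.2 ± 1.61 CPM in Control libraries and was not called. In the class of vesicular and synaptic neurotransmitter carriers, 2 of 5 genes rose and 2 fell, and none exceeded 8.18 CPM in any library. The GABA, glycine and glutamate transporters Slc6a12, Slc6a13, Slc6a9 and Slc1a2 were counted with the amino acid carriers instead. The vesicular monoamine transporter Slc18a1 had 1.696, 1.83 and 1.795 CPM in SA@BATMAN5 libraries, against 7.62, 5.84 and 5.37 CPM in Control libraries (log2 fold change -1.82 ± 0.18 SE, adjusted p = 5.7e-07 by edgeR), and the vesicular nucleotide transporter Slc17a9 had 5.59, 6.27 and 5.22 CPM in SA@BATMAN5 libraries, against 8.03, 7.27 and 8.18 CPM in Control libraries (log2 fold change -0.46 ± 0.12 SE, adjusted p = 0.00391 by edgeR). The serotonin transporter Slc6a4 was higher in every SA@BATMAN5 library, with 3.78, 2.96 and 2.95 CPM in SA@BATMAN5 libraries, against 0.683, 0.351 and 1.01 CPM in Control libraries (log2 fold change 2.22 ± 0.31 SE, adjusted p = 2.95e-05 by edgeR).

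Of the 43 members changed at least 2-fold, 15 had a mean under 5 CPM, and those not yet described were chosen after their values were seen. Slc12a5 (KCC2), a potassium-chloride cotransporter best known from neurons, had 7.39, 6.96 and 7.62 CPM in SA@BATMAN5 libraries, against 2.18, 2.81 and 2.37 CPM in Control libraries (log2 fold change 1.58 ± 0.14 SE, adjusted p = 3.51e-07 by edgeR). The others fell. Slc4a11 had 0.778, 1.03 and 0.801 CPM in SA@BATMAN5 libraries, against 5.72, 5.04 and 5.70 CPM in Control libraries (log2 fold change -2.66 ± 0.19 SE, adjusted p = 2.12e-08 by edgeR), and the zinc carrier Slc39a12 (ZIP12) had 0.111, 0.276 and 0.276 CPM in SA@BATMAN5 libraries, against 2.07, 2.31 and 3.47 CPM in Control libraries (log2 fold change -3.57 ± 0.41 SE, adjusted p = 1.39e-06 by edgeR). Slc51a, a subunit of a bile acid and steroid exporter, had 0.0556, 0.103 and 0.221 CPM in SA@BATMAN5 libraries, against 1.64, 1.35 and 1.32 CPM in Control libraries. The potassium-dependent sodium-calcium exchanger Slc24a3 fell by 1.98 on the log2 scale, the fatty acid transport protein Slc27a3 by 1.54, and Slc7a4 by 1.17, the last of which was not called without Control library 1.

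A few members remain. Of 3 genes with another or unassigned substrate, Slc66a2 fell by 0.16 on the log2 scale and Slc17a5 and Slc49a4 are described above. Slc9a3r1, a scaffold protein that carries a solute carrier symbol and is no transporter, rose by 0.19 on the log2 scale. Slc9a3r2, the related scaffold, had 1.78, 2.14 and 1.63 CPM in SA@BATMAN5 libraries, against 3.76, 3.61 and 3.32 CPM in Control libraries (log2 fold change -0.95 ± 0.19 SE, adjusted p = 0.000521 by edgeR). Slc4a1ap, the other gene of this kind, was not called. Slc7a6os, a protein-coding gene in RefSeq that overlaps Slc7a6 on the opposite strand, fell by 0.25 on the log2 scale while Slc7a6 rose by 0.48. The strand setting of the authors' counting is not given in the sources used here, so reads from the stretch where the pair overlaps may have been counted for either gene. In all, 10 pairs of members are neighbouring genes in RefSeq. Both genes rose in 2 pairs (Slc28a2 with Slc28a2b, and Slc6a13 with Slc6a12), both fell in 1 (Slc38a1 with Slc38a2), and the genes went opposite ways in 2 (Slc36a2 with Slc36a1, and Slc7a6 with Slc7a6os). In the other 5 pairs at least 1 gene was not called. Slc36a1 and Slc36a2 encode proton-coupled carriers of small amino acids. Slc36a1 had 73.4, 68.9 and 71.4 CPM in SA@BATMAN5 libraries, against 52.6, 55.7 and 52 CPM in Control libraries (log2 fold change 0.42 ± 0.045 SE, adjusted p = 1.97e-06 by edgeR), and Slc36a2 had 0.639, 0.758 and 0.663 CPM in SA@BATMAN5 libraries, against 1.94, 3.31 and 2.15 CPM in Control libraries (log2 fold change -1.84 ± 0.29 SE, adjusted p = 7.05e-05 by edgeR). Neither gene had a library within the range of the other group.

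On the length-scaled FPKM, Slc15a3 ranked first in both groups, at 267 ± 5.82 FPKM in SA@BATMAN5 libraries and 378 ± 6.59 FPKM in Control libraries (SD, n = 3 each). In SA@BATMAN5 cells Slc48a1, Slc25a5, Slc3a2 and Slc25a3 came next, at 228, 207, 170.3 and 136 FPKM. The same 5 genes led in Control cells in another order. Slc31a2 ranked 7th in SA@BATMAN5 cells and 34th in Control cells, with 73.3 ± 2.28 FPKM in SA@BATMAN5 libraries and 20.6 ± 1.44 FPKM in Control libraries. Slc37a2 ranked 54th in SA@BATMAN5 cells and 7th in Control cells, with 14.04 ± 0.3896 FPKM in SA@BATMAN5 libraries and 64.3 ± 2.25 FPKM in Control libraries. Of the 10 members with a mean of at least 50 FPKM, 9 were called and none by 2-fold or more. Of the 60 members under 1 FPKM, 22 were called, 15 of them at 2-fold or more. Between these limits, 65 of 98 members from 1 to 10 FPKM and 49 of 59 from 10 to 50 FPKM were called. Over all levels, 102 of the 145 called members changed by less than 2-fold and 72 by less than 1.5-fold. At the other end, 10 were at least 4-fold higher and 10 at least 4-fold lower. Among all genes tested, 7846 were called (58.2%), and 2227 were called at 2-fold or more (16.5%). The same counts by level were not made over all genes.

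**Figure D4:**
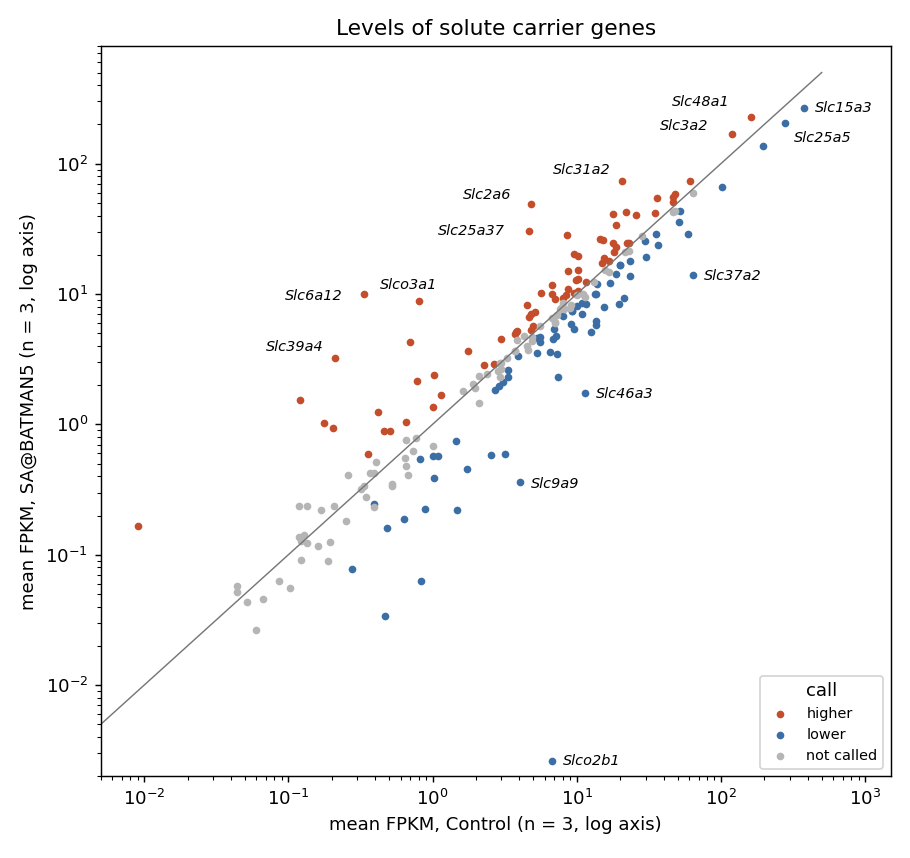
Each point is a solute carrier gene at its mean FPKM in SA@BATMAN5 libraries (vertical, log axis) and in Control libraries (horizontal, log axis), n = 3 each, coloured by its call, with a line at equal levels. Slc2a4, at 0 counts in SA@BATMAN5 libraries, is not drawn; the genes of highest level lie near the line, and Slc37a2 and Slc31a2 stand away from it among the abundant ones.

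A further list held 49 transporter genes with other symbols and partners of carriers. Of 38 tested, 12 rose, 14 fell and 12 were not called. Basigin (Bsg), which brings the lactate carriers MCT1 and MCT4 to the membrane, averaged 216 ± 8.77 CPM in SA@BATMAN5 libraries and 217 ± 7.66 CPM in Control libraries (SD, n = 3 each). The mitochondrial uncoupling carrier Ucp2 averaged 716 ± 17.02 CPM in SA@BATMAN5 libraries and 1256 ± 56.2 CPM in Control libraries. Mfsd7a, a gene of the major facilitator superfamily, averaged 45.5 ± 1.296 CPM in SA@BATMAN5 libraries and 6.41 ± 0.486 CPM in Control libraries. Of the 6 genes left out by name, 5 rose and 1 fell. The cystine exchanger Slc7a11 averaged 664 ± 54.2 CPM in SA@BATMAN5 libraries and 74.3 ± 2.37 CPM in Control libraries, the cationic amino acid carrier Slc7a2 1007 ± 13.6 CPM in SA@BATMAN5 libraries and 467 ± 17.1 CPM in Control libraries, and the phagosomal metal carrier Slc11a1 645 ± 4.12 CPM in SA@BATMAN5 libraries and 221 ± 2.66 CPM in Control libraries. The iron exporter Slc40a1 averaged 15.5 ± 0.458 CPM in SA@BATMAN5 libraries and 8.201 ± 0.929 CPM in Control libraries, and the metal carrier Slc11a2 112 ± 2.34 CPM in SA@BATMAN5 libraries and 98.4 ± 2.94 CPM in Control libraries. Slc7a1, another cationic amino acid carrier, fell, with 20.7 ± 0.931 CPM in SA@BATMAN5 libraries and 31.6 ± 0.962 CPM in Control libraries (SD, n = 3 each).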

How the data were processed

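Counts per gene and FPKM (fragments per length of transcript and size of library) were taken from the authors' deposited table of the whole series, per the file headers. Per the submitters' processing notes, the tools named are HISAT2 2.2.0, StringTie 2.1.2 and DESeq2 1.26.0, and the build GRCm39. For the counter, the annotation and the strand, the setting is not given in the sources used here. Per the labels, libraries came from 1.3 ug of RNA with a SMARTer kit. The columns are called N or S-5 with a number. S-5 was read as SA@BATMAN5, N as Control and the number as the replicate; no label states this.

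Counts of 23034 genes were filtered with filterByExpr (minimum count 10, minimum total 15), then TMM-scaled, and groups were compared in R 4.3.3 by the two-sided quasi-likelihood test of edgeR 4.0.16 (glmQLFit, glmQLFTest), with Benjamini-Hochberg adjustment over 13474 genes and a threshold of 0.05. The scripts were tested on simulated data. Substrate classes followed family numbers and textbook substrates, so members of a family could fall in different classes. Reads are not independent molecules, and intervals and floors therefore hold counting error alone. The correlation of same-numbered libraries' deviations from their group means lay between -0.003 and 0.012. This shows no shared pattern over the genes tested, but it cannot tell whether same-numbered libraries share an animal or day. No library was a copy of another: within groups the chi-square of counts over its degrees of freedom was 4.56 to 7.80. Promoter windows came from RefSeq, matched by symbol for 175 members. The windows' build differs from the authors'; no coordinates were converted.

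The members and lists were chosen with earlier results of these data known. The text names in full members called at 2-fold or more with a mean of at least 5 CPM, the member of highest FPKM and of smallest p in each class, and a list of well-studied transporters; any other member named was chosen after its values were seen. A few members that this rule names are not reported here. Alternatives were other scalings (DESeq2 1.42.0 size factors, library totals, upper quartile), other filters, DESeq2's Wald test, a replicate block, thinning to the shallowest library, each library left out and, added after the data were seen, limma 3.58.1 on log2(FPKM + 1).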

Additional observations from a re-analysis of the deposited data

How the results depend on the processing

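Of 145 called members, 122 kept call and direction under every alternative that tested them, and 41 of the 43 at 2-fold or more did. The exceptions were Slc1a2, lost on log2(FPKM + 1), and Slc7a4, lost without Control replicate 1. Members called higher and lower numbered 65 and 89 on library totals and on upper-quartile scaling, 73 and 69 after thinning to the shallowest library, 72 and 72 by DESeq2's Wald test, and 65 and 86 on log2(FPKM + 1). With each library left out in turn they ranged over 68 to 72 higher and 67 to 73 lower. Over all genes, upper-quartile scaling called 3239 higher and 4791 lower, against 3980 and 3866 with TMM. The median of all genes moved by -0.08 under that scaling. With the replicate block 72 members rose and 72 fell, and the labels do not say whether same-numbered libraries share more than a number. The values that changed sign were all of uncalled genes. Slc4a3, Slc37a1, Slc41a3 and Slc35a3 were among these genes, and the values of only a few others are given next. The log2 fold change of Slc35a1 was -0.038 on library totals, -0.045 on upper-quartile scaling and -0.031 on log2(FPKM + 1), and ran between -0.027 and 0.092 with each library left out. That of Slc27a4 was -0.0010 on upper-quartile scaling, and that of Slc43a2 ran between -0.042 and 0.022 with each library left out and was -0.14 on log2(FPKM + 1), where it was called. The cause of these changes was not tested. Several members not called here were called lower on library totals and on upper-quartile scaling. Slc1a5, Slc36a4, Slc25a4, Slc29a1, Slc39a9 and Slc25a51 were among them, and the list is not complete. On log2(FPKM + 1), Slc1a5, Slc25a4 and Slc2a3 were called lower as well. Members under 1 FPKM differed in how many counts they rest on, from 75 over the 6 libraries for Slc1a6 to 1312 for Slc12a2, to name 2. The part of depth in the calls at low level was not tested.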
